A study of Mus musculus with 30 samples.

Results

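Drug efflux by ATP-binding cassette (ABC) transporters is represented here by 6 genes, Abcb1a, Abcb1b, Abcg2, Abcc1, Abcc4 and Abcc5. They were picked by symbol, each matched 1 entry, and together they are 6 of the 46113 genes in the count files. Their mRNA was followed in 30 libraries of 100 sorted bone marrow cells each, from C57BL/6 mice of 8 to 10 weeks. All mice carried the same strain background, and no transgene or deletion is named in the labels. Stem cells (HSCs) were gated as CD150+, CD48-, EPCR+ and Lineage-, and progenitors (HPCs) as the CD48+ counterpart of that gate. The 5-FU experiment compared HSCs of untreated mice (n = 4) with HSCs sorted 6 days (n = 4) or 10 days (n = 6) after 5-fluorouracil, a pyrimidine analogue that is toxic to dividing cells and whose dose was not used here. The culture experiment compared HSCs of untreated mice before (n = 4) and after 1 day in culture (n = 4), with the medium not given in the labels. The CD48 experiment compared CD48- HSCs (n = 4) with CD48+ HPCs (n = 4), both at day 10 after 5-FU. Whether libraries of a group came from separate mice is not stated, so p-values measure only the spread between these samples, which may be technical.

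ABC exporters use ATP hydrolysis to move compounds out of the cell across the plasma membrane. Haematopoietic stem cells are known for strong export of fluorescent dyes, which places them in the weakly stained "side population" of a flow cytometry plot. Abcg2 (BCRP) is the main exporter of the Hoechst dye that defines this population and also exports porphyrins. Abcb1a and Abcb1b (Mdr1a and Mdr1b) are the mouse genes for P-glycoprotein, which exports rhodamine and many hydrophobic drugs. Abcc1 (MRP1) exports glutathione conjugates and leukotrienes. Abcc4 (MRP4) and Abcc5 (MRP5) export cyclic nucleotides and nucleotide analogues. Abcc5 is known for export of fluoropyrimidine monophosphates, which are among the forms that 5-FU takes inside cells.

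In mm10 coordinates of the count files, Abcb1a (gene 18671) lies at chr5:8567091-8748570 and Abcb1b (gene 18669) next to it at chr5:8798147-8866314, both on the plus strand. Abcg2 (gene 26357) lies at chr6:58584491-58692451 and Abcc1 (gene 17250) at chr16:14361512-14474879, also on the plus strand. Abcc4 (gene 239273, chr14:118482692-118706689) and Abcc5 (gene 27416, chr16:20331303-20426394) lie on the minus strand. Abcb1a and Abcb1b are similar copies that share identical stretches, so some reads can fit both. In the GENCODE M21 transcripts, both coding sequences had 3828 bases and 28 exons, and 3364 of 3837 aligned columns (87.7%) were identical. Their longest identical run had 338 bases across exons 13 and 14. Of that run, 150 bases in exon 13 are shown because no read inside them can tell the genes apart. They lie at chr5:8702387-8702536 in Abcb1a and chr5:8824707-8824856 in Abcb1b, plus strand of GRCm38.
Abcb1a and Abcb1b, shared stretch of exon 13: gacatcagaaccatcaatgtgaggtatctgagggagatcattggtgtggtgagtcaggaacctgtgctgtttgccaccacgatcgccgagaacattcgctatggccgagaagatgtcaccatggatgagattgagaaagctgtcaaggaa

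The 60 coding bases that differ most between the copies lie in exon 16, at chr5:8714924-8714983 in Abcb1a and chr5:8827363-8827422 in Abcb1b. They are shown because reads here do tell the genes apart, with the 25 positions that differ in capitals.
Abcb1a, exon 16: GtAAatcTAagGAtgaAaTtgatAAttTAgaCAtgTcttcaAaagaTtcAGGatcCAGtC
Abcb1b, exon 16: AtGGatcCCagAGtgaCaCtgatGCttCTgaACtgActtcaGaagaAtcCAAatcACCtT
Unique exon reads were 72.4 to 100% of the exon reads of Abcb1a and 74.2 to 91.6% of those of Abcb1b per library. In the other members they were at least 99.3%. In GENCODE M21, 10.1% of the exon bases of Abcb1a also belong to Gm42686 and 1.79% of those of Abcb1b to Gm5106, both on the opposite strand. The labels do not state counting by strand, so reads from such a partner cannot be told apart from those of the gene. The exons of the other 4 members overlapped no other gene.

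The sequences before the RefSeq starts of the copies also differ, but these starts may not be counterparts. The deposited model of Abcb1a has 33 exons against 28 in its GENCODE coding transcript, while Abcb1b has 28 in both. The Abcb1a window may thus lie at an alternative start of the gene. Which starts these cells used was not tested. Promoter sequences were taken from RefSeq (GRCm38.p6), which matched 5 of the 6 members, all but Abcc1. The 250 bases before the RefSeq start of each Abcb1 gene are shown as a description, and their part in the changes below was not tested. Capitals mark matches of CCAAT or GGGCGG on either strand.
Abcb1a, chr5:8566841-8567090, plus strand: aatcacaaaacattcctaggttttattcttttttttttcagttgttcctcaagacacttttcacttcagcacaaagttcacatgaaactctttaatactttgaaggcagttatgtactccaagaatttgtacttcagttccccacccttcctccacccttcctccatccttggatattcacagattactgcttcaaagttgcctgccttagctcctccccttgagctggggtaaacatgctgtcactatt
Abcb1b, chr5:8797897-8798146, plus strand: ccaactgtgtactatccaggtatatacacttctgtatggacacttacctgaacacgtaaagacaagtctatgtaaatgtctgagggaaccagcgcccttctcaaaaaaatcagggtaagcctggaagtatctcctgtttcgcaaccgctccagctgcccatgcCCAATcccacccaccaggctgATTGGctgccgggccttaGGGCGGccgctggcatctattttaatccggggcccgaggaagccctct
The Abcb1a window held 40.4% G and C and 0 matches of either motif. The Abcb1b window held 52.8% G and C, with CCAAT at 87 to 83 bases before the start, its reverse complement at 66 to 62 and GGGCGG at 48 to 43. Across 32851 RefSeq windows of this length the median was 52.4% G and C. CCAAT was present in 33.8% and GGGCGG in 32.7% of these windows. ACGTG, a core of hypoxia response elements, was present once in the Abcb1b window and in 16.6% of all windows. GCGTG, a core of dioxin response elements (28.2% of all windows), and TGACTCA, an AP-1 site (4.46%), had no match in either Abcb1 window. A match is a description of the letters and not a binding site.

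Values below are exon reads as CPM, exon read counts scaled to library size with TMM factors over all 30 libraries. Changes are log2 fold changes ± SE from edgeR's quasi-likelihood test, with Benjamini-Hochberg adjustment over every tested gene and a threshold of 0.05. In bulk samples of sorted cells, fewer cells that use a gene and less of its RNA per cell cannot be told apart. The libraries held 5208722 to 12243208 exon reads, so that a member had between 10 reads (Abcb1a in a day-10 library) and 3547 reads (Abcc1 in a cultured library). The 7 HSC markers Procr, which encodes EPCR, Slamf1, which encodes CD150, Kit, Ly6a, Mecom, Hlf and Fgd5 were detected in every group. Their summed level ranged from 3368 to 3882 CPM in untreated, 2046 to 2089 in day-6 and 1991 to 2795 in day-10 HSCs. It ranged from 2990.3 to 3217 in uncultured, 1586 to 1903 in cultured HSCs, 2634 to 3232 in CD48- HSCs and 1536 to 1919 in CD48+ HPCs. This sum was thus lower in all day-6, day-10 and cultured libraries than in their controls. It was also lower in all CD48+ HPC than in all CD48- HSC libraries. But not every marker fell. Of the 7 genes, 0 were called higher and 2 lower at day 6, and 2 higher and 2 lower at day 10. In culture 1 was called higher and 6 lower, and in CD48+ HPCs 0 higher and 6 lower. The shares called among all tested genes are given below. The part of these markers in the results was not tested.

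In 4 libraries, markers of another cell type summed to over 3 times the median of the group and over 500 CPM. Untreated replicate 3 held 1546 CPM of granulocyte markers and day-6 replicate 1 held 1924 CPM of macrophage and monocyte markers. Uncultured replicate 3 held 4735 CPM and CD48- HSC replicate 3 held 9523 CPM of erythroid markers. Erythroid markers summed to 2486 to 6430.5 CPM in untreated against 362 to 488 in day-6 HSCs, with Hba-a2 and Slc4a1 at 0 at day 6, and their part in the changes below was not tested. Without these 4 libraries, no member lost a call in the 5 main comparisons, and Abcc4 gained one at day 6 and at day 10 (below). The rule compares a library with its own group, so this fit cannot decide on markers that a whole group shares. At day 6, 9 of 10 tested erythroid markers were called lower, and 10 of 11 macrophage and monocyte markers higher. At day 10 it was 6 of 10 lower and 5 of 11 higher, and 0 went the other way at either time. Among all tested genes 25.7% were called lower and 25.7% higher at day 6, and 18.1% and 19.9% at day 10. Granulocyte markers were also high in uncultured replicates 1 and 4 (2254 and 1483 CPM), against 98.9 and 79.1 in replicates 2 and 3 and 10.1 to 15.7 in cultured HSCs. Without untreated replicate 3 and these 2 libraries, 4 of 6 members were called in culture, and Abcb1b (0.37, adjusted p = 0.058) and Abcc4 (0.20, adjusted p = 0.088) lost their calls. In that fit 2 uncultured libraries stood against 4 cultured ones. Macrophage and monocyte markers summed to 381 to 1683 CPM in CD48+ HPCs, highest in replicate 3, and to 322 to 596 in CD48- HSCs. Of 11 tested, 7 were called higher in the HPCs and 0 lower, against 26.5% of all tested genes in either direction.

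In CPM per kilobase of exon, Abcc1 was the highest member in all 7 groups and Abcb1a the lowest. In untreated HSCs the level per kilobase was 54.7 ± 3.57 (SD, n = 4) for Abcc1, 22.5 ± 1.43 for Abcg2, 13.8 ± 1.78 for Abcc4, 13.5 ± 1.57 for Abcc5, 7.94 ± 1.52 for Abcb1b and 2.70 ± 0.786 for Abcb1a. Only Abcc4 and Abcc5 overlapped among neighbours in that order. In cultured HSCs the order was Abcc1 at 69.1 ± 3.55, Abcg2 at 27.9 ± 1.31, Abcc4 at 13.7 ± 0.290, Abcb1b at 9.98 ± 1.27, Abcc5 at 7.36 ± 0.750 and Abcb1a at 0.631 ± 0.263, with no neighbours that overlapped. In CD48+ HPCs, Abcc4 (14.7 ± 1.48), Abcg2 (12.5 ± 2.78), Abcc5 (11.1 ± 1.39) and Abcb1b (9.83 ± 1.20) each overlapped their neighbour. The middle of the order depended on the gene model. With the length of the longest GENCODE coding transcript, which is 5717 bases for Abcg2 against 2913 in the deposited model, Abcg2 stood 4th in untreated HSCs at 11.5, while Abcc1 stayed highest and Abcb1a lowest in all 7 groups.

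**Figure D1:**
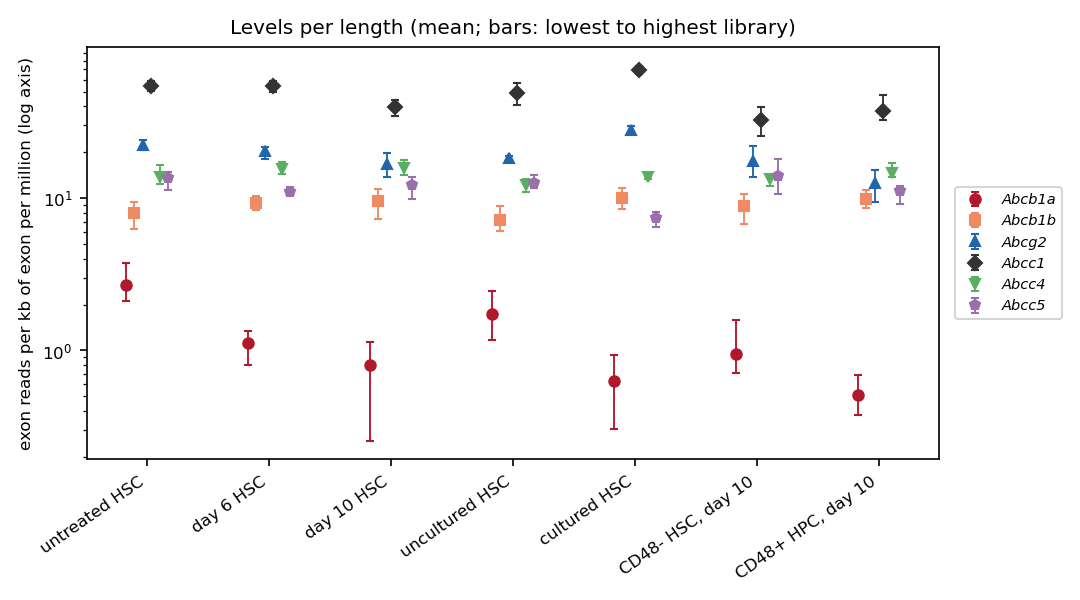
Mean CPM per kilobase of exon of the 6 genes (log axis) in the 7 groups, with bars from the lowest to the highest library. Abcc1 lies above and Abcb1a below all other members in every group.

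The 6 genes did not move as a block. After 5-FU, the members that passed the test against untreated HSCs were all lower. At day 6 these were 2 of 6, Abcb1a and Abcc5, with 0 higher, where 25.7% of 12886 tested genes were called lower and 25.7% higher. At day 10 they were 3 of 6, Abcb1a, Abcg2 and Abcc1, with 0 higher, where 18.1% of genes were called lower and 19.9% higher. From day 6 to day 10, 2 of 6 fell, Abcg2 and Abcc1, and 0 rose, against 15.9% lower and 14.7% higher among all genes. In culture all 6 were called, 4 higher (Abcb1b, Abcg2, Abcc1 and Abcc4) and 2 lower (Abcb1a and Abcc5), against 33.8% higher and 33.8% lower among 12386 tested genes. Between CD48+ HPCs and CD48- HSCs, 0 of 6 were called by edgeR, where 26.5% of 12719 genes were called in either direction. There, 2 members had an unadjusted p under 0.05, and DESeq2 called 1 (Abcg2, adjusted p = 0.0492). The 2 comparisons with untreated HSCs share those control libraries. Against the uncultured controls of the culture experiment instead, Abcb1b and Abcc4 were called higher and 0 members lower at day 6. At day 10, Abcb1b and Abcc4 were higher and Abcb1a and Abcc1 lower.

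Groups whose libraries do not overlap give a second count. This held for 1 of 6 members at day 6 (48.5% of all tested genes), 3 at day 10 (23.6%), 1 from day 6 to day 10 (22.6%), 4 in culture (62% of genes) and 1 in the CD48 comparison (27.1%). The median log2 change over the members was -0.07 at day 6, -0.29 at day 10, 0.34 in culture and -0.09 between CD48+ HPCs and CD48- HSCs. The median over all tested genes was -0.04 at day 6, -0.004 at day 10 and -0.01 in culture and in the CD48 comparison.

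**Figure D2:**
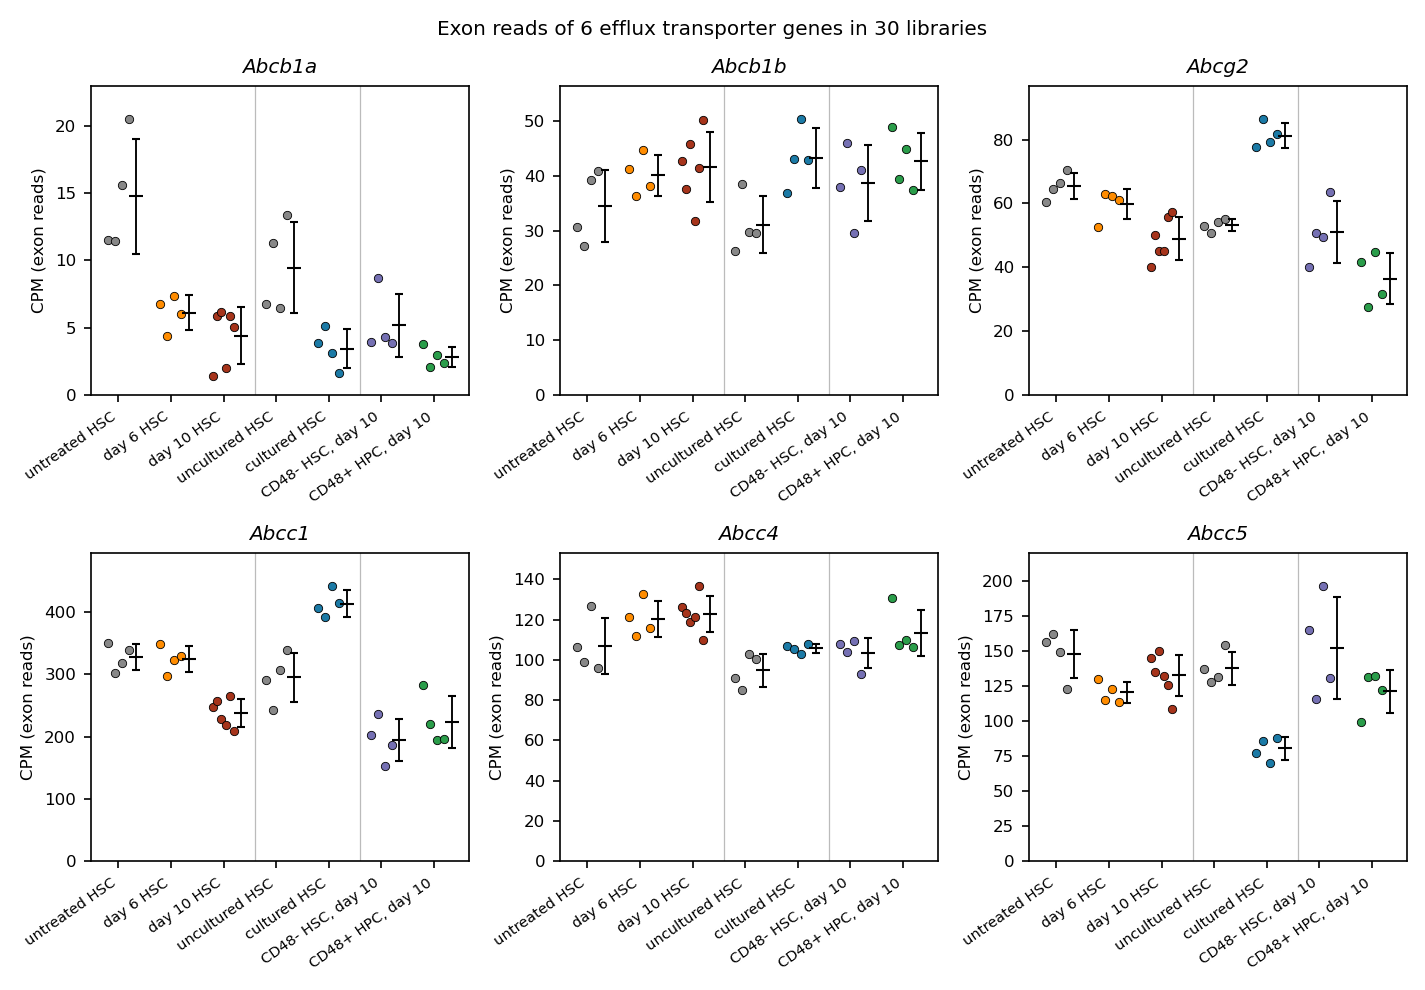
Exon reads in CPM of each gene in every library (points), with the mean and SD of each group (dash and bar), on axes that start at 0. Abcb1a is lower in every day-6, day-10 and cultured library than in any library of its control group, and Abcg2 and Abcc1 are higher in every cultured than in any uncultured library.

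Abcb1a, a P-glycoprotein gene, fell at both times after 5-FU and in culture. Untreated HSCs had 11.5, 11.5, 15.6 and 20.5 CPM in replicates 1 to 4. Day-6 HSCs had 6.75, 4.38, 7.36 and 5.99 CPM, and day-10 HSCs ranged from 1.40 to 6.19 CPM with a median of 5.47. Every library after 5-FU was below every untreated library. The level fell by 1.26 ± 0.38 on the log2 scale at day 6 (adjusted p = 0.011) and by 1.73 ± 0.34 at day 10 (adjusted p = 0.0011). Uncultured HSCs had 6.77, 11.3, 6.44 and 13.3 CPM and cultured HSCs 3.89, 5.09, 3.13 and 1.66. Again the groups did not overlap, and the level fell by 1.43 ± 0.36 (adjusted p = 0.0036). With intron reads of Abcb1a, scaled to the intron reads of all genes, it was -0.72 and did not pass (adjusted p = 0.059). CD48- HSCs at day 10 had 3.89, 8.69, 4.27 and 3.88 CPM and CD48+ HPCs 3.78, 2.07, 2.98 and 2.36. The HPC libraries were all below the HSC libraries, but the difference of -0.88 ± 0.37 did not pass (adjusted p = 0.096), and it was -0.51 without CD48- HSC replicate 2. The 2 control groups, untreated and uncultured HSCs, differed by 0.64 ± 0.38 (adjusted p = 0.37). Against the uncultured controls of the other experiment, the day-6 difference was -0.63 (adjusted p = 0.17) and no longer passed, while the day-10 difference of -1.09 did (adjusted p = 0.013).

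Abcb1b, the other P-glycoprotein gene, did not follow Abcb1a. Untreated HSCs had 30.7, 27.2, 39.2 and 40.9 CPM, day-6 HSCs 41.3, 36.3, 44.7 and 38.1, and day-10 HSCs 31.8 to 50.2 with a median of 42.0. These groups overlapped, and the differences of 0.22 ± 0.15 at day 6 (adjusted p = 0.23) and 0.27 ± 0.14 at day 10 (adjusted p = 0.13) did not pass. Uncultured HSCs had 26.4, 38.5, 29.8 and 29.6 CPM and cultured HSCs 36.9, 43.1, 50.4 and 43.0. Abcb1b rose by 0.50 ± 0.14 in culture (adjusted p = 0.0058), although uncultured replicate 2 lay above cultured replicate 1. CD48- HSCs had 38.0, 46.0, 29.6 and 41.1 CPM and CD48+ HPCs 49.0, 39.5, 44.9 and 37.5, which overlap (0.15 ± 0.15, adjusted p = 0.47). With reads that span exon junctions, the culture change was 0.31 (adjusted p = 0.12) and did not pass, nor did it without the uncultured libraries rich in granulocyte markers (0.37, adjusted p = 0.058). Against the controls of the other experiment, it was 0.33 (adjusted p = 0.060), while day 6 (0.37, adjusted p = 0.045) and day 10 (0.42, adjusted p = 0.017) passed.

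The division of P-glycoprotein reads between the copies shifted towards Abcb1b. It rests on the same reads as the tests above, in which Abcb1a fell after 5-FU and Abcb1b did not pass. The share of Abcb1b in the exon reads of both genes was 72.8, 70.3, 71.5 and 66.6% in untreated HSCs and 85.9, 89.2, 85.8 and 86.4% at day 6. It was 86.5 to 96.8% at day 10. All libraries after 5-FU exceeded all untreated ones. The mean was 70.3% ± 2.68 (SD, n = 4) in untreated, 86.9% ± 1.61 (n = 4) in day-6 and 90.6% ± 4.07 (n = 6) in day-10 HSCs. Uncultured HSCs had a mean of 77.0% ± 5.77 (n = 4), and the shares after 5-FU were not tested against them. In two-sided exact permutation tests adjusted over 5 comparisons, day 6 had p = 0.0286 (adjusted 0.0357) and day 10 p = 0.00476 (adjusted 0.0238), the smallest p these group sizes allow. From day 6 to day 10 the exact permutation p was 0.114. Cultured HSCs had 90.5, 89.4, 94.2 and 96.3% against 79.6, 77.4, 82.2 and 68.9% before culture (exact permutation p = 0.0286, adjusted 0.0357). CD48+ HPCs had 92.8, 95.0, 93.8 and 94.1% against 90.7, 84.1, 87.4 and 91.4% in CD48- HSCs (exact permutation p = 0.0286, adjusted 0.0357). That last call was lost without any 1 of the 4 CD48+ HPC libraries (exact permutation adjusted p = 0.0714 to 0.107). Unique reads gave shares within 2 percentage points of these means, from 68.5% in untreated to 93.8% in CD48+ HPCs. With intron reads the differences at day 6, in culture and for CD48 were 14.3, 8.20 and 3.76 percentage points (exact permutation adjusted p = 0.0714 each), and day 10 still passed with 17.5 points (adjusted p = 0.0238).

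**Figure D3:**
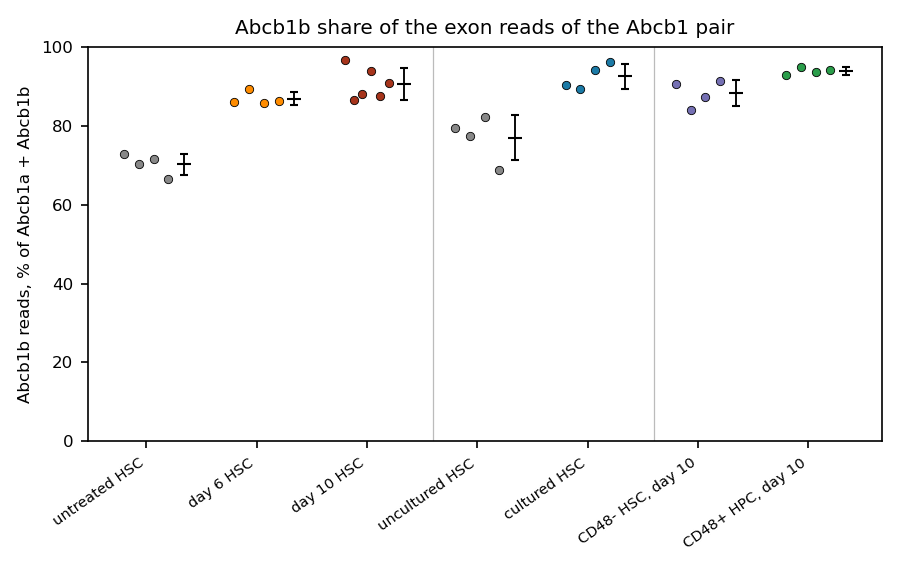
Abcb1b exon reads as a percentage of the exon reads of Abcb1a and Abcb1b in each library (points), with mean and SD of each group, on an axis from 0. Untreated libraries lie between 66.6 and 72.8%, and all libraries after 5-FU or culture at 84.1% or more.

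Abcg2, the dye and porphyrin exporter, was lower 10 days after 5-FU and higher after culture. Untreated HSCs had 60.5, 64.5, 66.3 and 70.5 CPM. Day-6 HSCs had 52.7, 62.9, 62.2 and 61.2, which overlap with them (-0.13 ± 0.11, adjusted p = 0.34). Day-10 HSCs ranged from 40.0 to 57.3 CPM with a median of 47.6, all below every untreated library. The day-10 level was 0.747-fold of the untreated one, a log2 change of -0.42 ± 0.10 (adjusted p = 0.0042). Against the uncultured controls it was -0.12 (adjusted p = 0.44) and did not pass. Uncultured HSCs of that experiment had 52.9, 50.8, 54.1 and 55.0 CPM. Those controls did not overlap with the untreated ones, with a difference of 0.30 ± 0.13 between them that did not pass (adjusted p = 0.20). The further change from day 6 to day 10 (-0.29 ± 0.10, adjusted p = 0.039, groups that overlap) was lost without day-6 replicate 2, 3 or 4 or day-10 replicate 2, 3 or 4 (adjusted p = 0.053 to 0.11). The lowest day-6 library, replicate 1, was the one rich in macrophage markers, and that part was not tested.

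Cultured HSCs had 77.8, 86.4, 79.2 and 81.8 CPM of Abcg2, each above every library of the 6 other groups. The level rose 1.55-fold in culture, a log2 change of 0.64 ± 0.08 (adjusted p = 8.8e-06), and the call held without any 1 library. Against the untreated controls of the 5-FU experiment it was 0.31 (adjusted p = 0.035). CD48- HSCs had 40.2, 50.8, 49.5 and 63.7 CPM and CD48+ HPCs 41.7, 27.6, 44.7 and 31.7. These overlap, and the difference of -0.48 ± 0.18 did not pass (adjusted p = 0.067). It passed without CD48- HSC replicate 1 (-0.57, adjusted p = 0.0499) or CD48+ HPC replicate 3 (-0.59, adjusted p = 0.041), and in the fit of all 30 libraries (-0.48, adjusted p = 0.0055).

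Exon and intron reads of Abcg2 went opposite ways in culture. Scaled to the intron reads of all genes, its intron reads fell by 0.39 on the log2 scale (adjusted p = 0.0047) while its exon reads rose. Reads across exon junctions rose by 0.53 (adjusted p = 0.00029). Exon reads per intron read of Abcg2 were 0.153, 0.158, 0.161 and 0.133 in uncultured and 0.428, 0.471, 0.409 and 0.391 in cultured libraries. Summed over all genes, introns held 66.4% ± 0.940 (SD, n = 4) of reads on genes in uncultured and 56.3% ± 0.157 (n = 4) in cultured libraries. At day 10 exon and intron reads of Abcg2 both fell by 0.42 on the log2 scale.

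Abcc1, the exporter of glutathione conjugates, was lower at day 10 after 5-FU and higher after culture. Untreated HSCs had 351, 303, 318 and 339 CPM and day-6 HSCs 349, 297, 323 and 329, a difference of -0.01 ± 0.08 (adjusted p = 0.91). Day-10 HSCs ranged from 208 to 265 CPM with a median of 237, and none reached an untreated or day-6 library. The log2 change was -0.46 ± 0.08 from untreated (adjusted p = 0.00027) and -0.45 ± 0.08 from day 6 (adjusted p = 0.00062). Both kept their calls without any 1 library. In culture Abcc1 rose from 291, 243, 307 and 339 CPM to 406, 392, 442 and 414, with no overlap and a log2 change of 0.51 ± 0.09 (adjusted p = 0.00021). Against the untreated controls it was 0.34 (adjusted p = 0.013). CD48- HSCs had 202, 236, 153 and 187 CPM and CD48+ HPCs 283, 221, 195 and 197, which overlap (0.21 ± 0.15, adjusted p = 0.31). The library with 153 CPM was the one rich in erythroid markers, and the difference was 0.12 without it. Scaled to the intron reads of all genes, intron reads of Abcc1 rose at day 6 by 0.36 (adjusted p = 0.0024), where its exon reads did not pass the test. Scaled to the exon reads of the library they were at 726 ± 74.8 CPM (SD, n = 4) in untreated and 697 ± 18.7 (n = 4) in day-6 HSCs, while the intron share of reads on all genes went from 65.1% ± 1.28 to 57.5% ± 0.867. On the intron scale day 10 gave -0.14 (adjusted p = 0.18), and culture a rise of 0.73 (adjusted p = 1.8e-05). In culture the level per library exon reads went from 828 ± 88.4 to 973 ± 59.6 CPM.

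Abcc4, an exporter of cyclic nucleotides, had log2 differences of at most 0.20 in the 5 main comparisons. Untreated HSCs had 106, 99.1, 126 and 95.8 CPM, day-6 HSCs 121, 112, 133 and 116, and day-10 HSCs 109.6 to 137 with a median of 122. The differences of 0.17 ± 0.09 at day 6 (adjusted p = 0.14) and 0.20 ± 0.09 at day 10 (adjusted p = 0.083) did not pass. Untreated replicate 3, the library rich in granulocyte markers, held the highest untreated value. Without it both passed (0.26, adjusted p = 0.025, and 0.29, adjusted p = 0.016). Day 10 also passed without day-10 replicate 6 (0.24, adjusted p = 0.046). Both passed against the uncultured controls (0.35, adjusted p = 0.0018, and 0.37, adjusted p = 0.00057). Uncultured HSCs had 90.8, 84.9, 103 and 100.3 CPM and cultured HSCs 107, 105, 103 and 108. These groups overlap at 103 CPM, and the rise of 0.19 ± 0.08 (adjusted p = 0.047) was lost without uncultured replicate 1 or 2 or any 1 cultured library (adjusted p = 0.058 to 0.11). Without the uncultured libraries rich in granulocyte markers it was 0.20 (adjusted p = 0.088), and against the untreated controls -0.014 (adjusted p = 0.90). CD48- HSCs had 108, 104, 109 and 92.8 CPM and CD48+ HPCs 130.5, 107, 109.7 and 106 (0.14 ± 0.10, adjusted p = 0.31).

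Abcc5, the exporter of fluoropyrimidine monophosphates, had its own largest fall in culture. Uncultured HSCs had 137, 128, 131 and 154 CPM and cultured HSCs 77.4, 86.0, 70.2 and 88.0. No other group had a library as low as the highest cultured one, and the level fell by 0.75 ± 0.09 on the log2 scale (adjusted p = 1.1e-05). After 5-FU the changes were smaller. Untreated HSCs had 156, 162, 149.5 and 123 CPM and day-6 HSCs 129.6, 115, 123 and 114. They overlap through untreated replicate 4, and the fall of 0.29 ± 0.10 (adjusted p = 0.028) did not pass when untreated replicate 1 or 2, or day-6 replicate 2 or 4, was left out (adjusted p = 0.062 to 0.084). It was -0.05 with intron reads (adjusted p = 0.85) and -0.19 against the uncultured controls (adjusted p = 0.21). Day-10 HSCs ranged from 109 to 149.6 CPM with a median of 134 and did not differ by the test (-0.15 ± 0.09, adjusted p = 0.21). CD48- HSCs spread from 116 to 197 CPM (165, 116, 197 and 131) and CD48+ HPCs had 99.4, 131, 132 and 122 (-0.32 ± 0.16, adjusted p = 0.15). The library at 197 CPM was the one rich in erythroid markers, and the difference was -0.16 without it. In the fit of all 30 libraries the difference passed (-0.33, adjusted p = 0.0495). Intron reads of Abcc5 did not pass in culture (-0.26, adjusted p = 0.13).

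**Figure D4:**
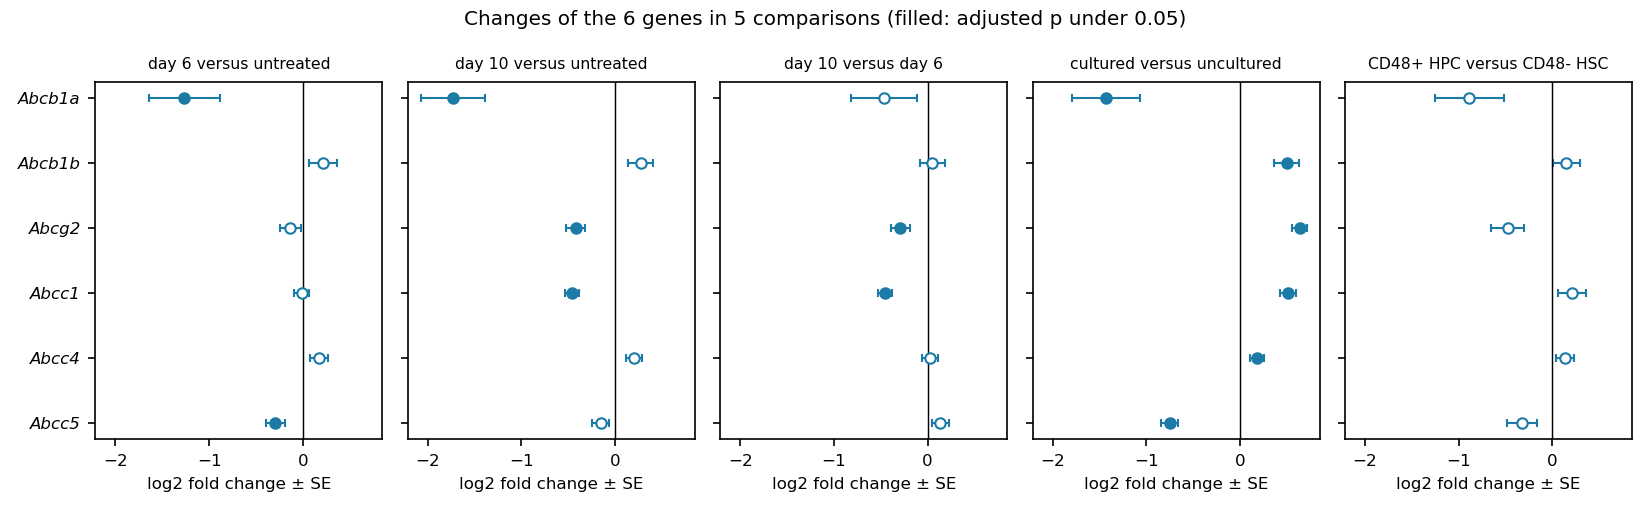
Log2 fold changes with SE of the 6 genes in 5 comparisons. Filled points passed an adjusted p of 0.05: all 6 in culture, none between CD48+ HPCs and CD48- HSCs, and points left of 0 alone in the 3 panels of the 5-FU experiment.

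**Figure D5:**
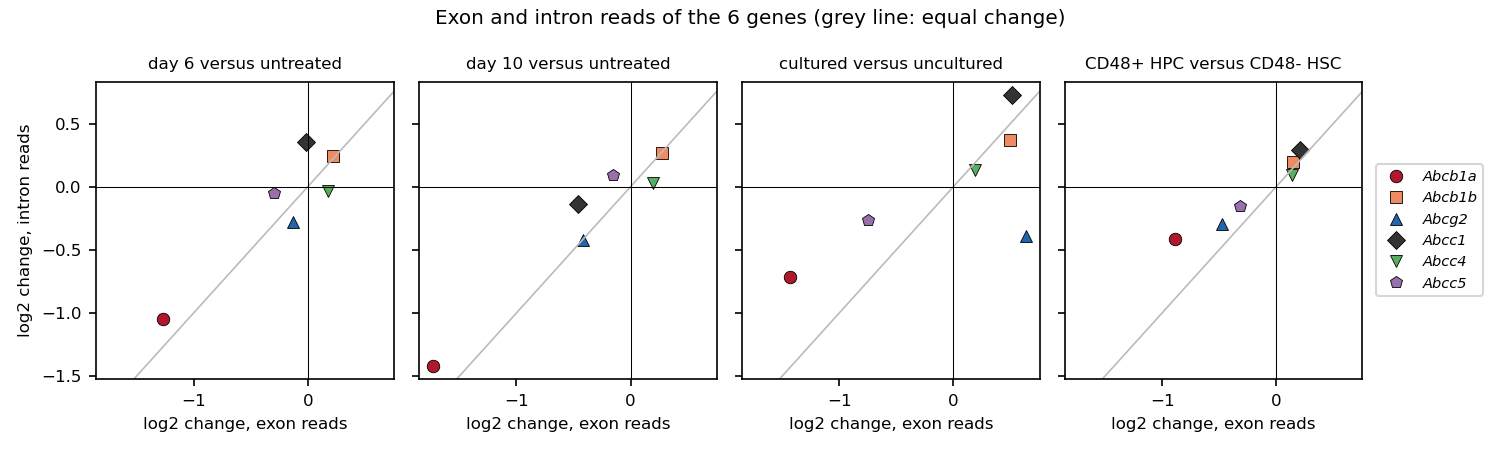
Log2 change of intron reads against that of exon reads for each gene in 4 comparisons, with a grey line where both are equal. Abcg2 in culture (0.64 in exon and -0.39 in intron reads, each scaled to its own total) lies below the line and Abcc1 at day 6 (-0.01 and 0.36) above it.

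Whether culture and 5-FU moved the members differently was tested as the difference of the 2 changes, each against its own controls, in 1 fit of all 30 libraries. Of 6 members 2 passed, where 15.1% of 13468 genes did. The culture change of Abcg2 exceeded its day-6 change by 0.74 ± 0.18 (adjusted p = 0.0061), and that of Abcc1 by 0.50 ± 0.16 (adjusted p = 0.037). Abcg2 kept its call without any 1 library, but with intron reads its difference was -0.12 and did not pass (adjusted p = 0.71). Abcc1 lost it without untreated replicate 1 or 4, day-6 replicate 2, 3 or 4, uncultured replicate 2 or cultured replicate 3 or 4 (adjusted p = 0.053 to 0.11). Abcc5 gave -0.48 ± 0.18 (adjusted p = 0.073). The fall of Abcb1a did not differ by the test (-0.19 ± 0.54, adjusted p = 0.86). As a check across experiments, untreated and uncultured HSCs were compared, and 0 of 6 members passed against 4.65% of genes, with 0 called by DESeq2. By edgeR 1 member, Abcg2, had an unadjusted p under 0.05, at 0.30 ± 0.13 with groups that did not overlap. Day-10 HSCs of the CD48 and 5-FU experiments differed in 1 of 6 (Abcc4, -0.24 ± 0.08, adjusted p = 0.038), against 16.2% of genes. That call was lost without day-10 replicate 1, 4 or 5 or CD48- HSC replicate 2, 3 or 4 (adjusted p = 0.055 to 0.081). Abcc1 gave -0.29 ± 0.11 (adjusted p = 0.064) and passed without CD48- HSC replicate 2 (adjusted p = 0.015) or day-10 replicate 6 (adjusted p = 0.045).

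The counts of other gene lists below stand beside the shares among all tested genes: 25.7% higher and 25.7% lower at day 6, 19.9% and 18.1% at day 10, 33.8% and 33.8% in culture, and 26.5% in either direction for CD48. Of 15 related ABCB, ABCC and ABCG genes, not all of which export drugs, 6 were measured well enough to test in the 5-FU experiment. Of these, 4 fell and 0 rose at day 6, and 4 fell and 0 rose at day 10. In culture all 7 tested relatives fell (median -1.37). Abcb4, a phospholipid transporter and close relative of Abcb1a, went from 12.9 ± 2.12 CPM (SD, n = 4) to 2.56 ± 0.933 at day 6 and from 16.3 ± 7.86 to 3.36 ± 0.658 in culture. Abcg3, a rodent relative of Abcg2, fell from 111.6 ± 16.6 to 47.1 ± 7.91 CPM at day 6 and from 88.5 ± 10.5 to 18.4 ± 3.25 in culture, while Abcg2 rose there. Of the tested ABCA genes, 4 of 7 fell at day 6, 1 of 7 at day 10 and 3 of 6 in culture, where 2 rose. Abca1, the cholesterol exporter, went from 180.4 ± 28.9 to 80.1 ± 28.8 CPM at day 6 and was at 220.1 ± 52.3 at day 10. It went from 118 ± 20.9 to 9.78 ± 4.13 in culture. Organelle transporters split, with 3 of 10 higher and 5 lower at day 6, 3 and 3 at day 10, and 3 and 4 in culture. Of the 4 ABC proteins that are no transporters, 3 rose and 0 fell at day 6, at day 10 and in culture. Abce1, a ribosome recycling factor, rose from 117.8 ± 12.6 to 225 ± 22.3 CPM at day 6 and from 111.1 ± 11.5 to 270.3 ± 20.6 in culture.

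Uptake of nucleosides runs against export, and 5 of 7 uptake genes were tested. Slc29a1 (ENT1), the main equilibrative nucleoside carrier, rose from 54.7 ± 9.19 to 105 ± 13.1 CPM at day 6 (0.94 ± 0.15, adjusted p = 0.00014), the 1 called gene of the 5. It was at 59.3 ± 10.8 CPM at day 10, where Slc28a2 rose and Slc29a2 fell. In culture Slc29a1 rose to 126 ± 15.1 CPM from 65.4 ± 8.48 (0.97 ± 0.11, adjusted p = 5.8e-06). Slc28a2 (CNT2), a sodium-coupled purine nucleoside carrier, and Slc29a3 fell there, Slc28a2 from 57.1 ± 6.79 to 17.6 ± 1.03 CPM. In CD48+ HPCs both Slc29a1 (97.4 ± 6.44 against 51.5 ± 10.9 CPM, adjusted p = 0.0010) and Slc28a2 (84.8 ± 8.52 against 60.3 ± 9.08, adjusted p = 0.012) were higher than in CD48- HSCs, where none of the 6 exporters passed.

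Genes that make or attach glutathione, the cofactor of Abcc1 export, were 20 in number, of which 19 were tested. At day 6, 3 rose and 6 fell, at day 10 1 rose and 2 fell, in culture 4 rose and 8 fell, and for CD48 2 were higher and 2 lower in HPCs. Gclm, the regulatory subunit of glutamate-cysteine ligase, rose to 101 ± 14.6 CPM at day 10 from 75.9 ± 5.09, and Gstm1, a glutathione transferase, was at 135 ± 9.67 in CD48+ HPCs against 221 ± 16.7 in CD48- HSCs. Of 12 tested genes known to regulate the transcription of efflux genes, 3 rose and 2 fell at day 6, 3 rose and 1 fell at day 10, and 5 rose and 5 fell in culture. Ybx1, which encodes the Y-box protein, rose from 99.7 ± 2.91 to 221 ± 17.0 CPM at day 6 and from 108 ± 5.11 to 326 ± 4.11 in culture. Foxo3, a forkhead factor, fell from 579.9 ± 50.0 to 334 ± 4.99 at day 6 and from 610.3 ± 62.1 to 254 ± 19.2 in culture. In CD48+ HPCs 2 of 13 were higher and 3 lower, and the lower ones included Epas1 (9.79 ± 2.57 against 34.9 ± 4.96 CPM), a hypoxia factor, and Ahr (20.4 ± 4.78 against 43.8 ± 10.9), the dioxin receptor.

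Patterns over the 30 libraries were ranked by Pearson correlation of log2 CPM, as a description, since the libraries share groups and scaling. Among themselves the members ran from 0.69 (Abcg2 with Abcc1) to -0.58 (Abcc1 with Abcc5), and Abcb1a with Abcb1b gave -0.26. Most like Abcb1a were Cdkn1c (0.87), Zfp512b (0.87) and Runx1t1 (0.86). Most like Abcb1b were Psmc1 (0.75), Psmb7 (0.72) and Psma2 (0.72). Most like Abcg2 were Nckap1 (0.87), Dock1 (0.85) and Ndn (0.85). Most like Abcc1 were Mat2a (0.90), Usp36 (0.89) and Prdx6 (0.88). Most like Abcc4 were Ints9 (0.80), Eif3h (0.78) and Hsd17b4 (0.74), and most like Abcc5 were Kcnh6 (0.90), Cerk (0.90) and Helz (0.90).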

How the data were processed

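RNA of 30 libraries was measured. Per the file headers, the authors deposited for each of 48737 entries the total, unique, intron and exon-exon read counts, beside TPM, RPKM and expression values that were not used here. The build is mm10, per the submitters' processing notes; aligner, counter and annotation were not given in the sources used here. Read counts were summed per gene identifier (46113 genes, 1931 with more than 1 entry; 25149 entries had no exon). Each experiment was fitted with edgeR 4.0.16 (filterByExpr, TMM, group means, quasi-likelihood test, adjusted p under 0.05) in R 4.3.3, and checked on simulated data. The difference of changes and the comparisons across experiments used all 30 libraries in 1 fit. SE is the log2 change divided by the root of F. Shares were tested by exact permutation in SciPy 1.17.1. Depth was 5208722 to 12243208 exon reads, and replicates differed beyond sampling noise (chi-square per degree of freedom 2.44 to 43.3 over 51 pairs).

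The members and lists were chosen with earlier results of these data known. Named were all members, per list and comparison at most the 2 called genes of largest change with at least 5 CPM in the higher group, and per member the 3 genes of highest correlation (prior count 2). Slc29a3 was named after its values were seen. Alternatives were RLE scaling, no filter, unique, intron or exon-exon reads, entries as deposited, a replicate block, DESeq2 1.42.0, other controls and leaving out libraries. The fit of exon-exon reads, the GENCODE lengths and leaving out the 4 libraries rich in markers of other cells or the 3 with over 1000 CPM of granulocyte markers were chosen after seeing the data. Some cell type markers are not reported here and were left out of the marker sums.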

Additional observations from a re-analysis of the deposited data

Results flagged for a closer look

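For the 6 genes and the Abcb1b share in the 7 groups, 49 sets of 4 or 6 libraries were looked at. In 4 sets, 1 library lay far from the others, where chance flags about 1 in 20 sets. Abcb1a was highest in replicate 2 of the day-10 CD48- HSCs at 8.69 CPM, against 3.88 to 4.27 in the other replicates. Abcg2 was lowest in day-6 replicate 1 at 52.7 CPM, against 61.2 to 62.9, and the same library held 1924 CPM of macrophage and monocyte markers, whose part was not tested. Abcc4 was highest in replicate 1 of the CD48+ HPCs at 130.5 CPM, against 106 to 109.7. The Abcb1b share was highest in day-6 replicate 2 at 89.2%, against 85.8 to 86.4%.

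For 2 genes the change in culture differed from the change at day 6 after 5-FU by edgeR's test of that difference. It was 0.74 on the log2 scale for Abcg2 (adjusted p = 0.0061) and 0.50 for Abcc1 (adjusted p = 0.037). The cultured and the 5-FU-treated HSCs belong to separate experiments with their own controls.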

How the results depend on the processing

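Over 48 member results and 984 alternatives, 903 kept their direction where called and their side of the threshold, 57 lost a call, 20 gained one and 4 turned direction; the cause was not tested. With intron reads, scaled to the intron reads of all genes, Abcc1 rose at day 6 (0.36), Abcg2 fell in culture (-0.39) and its difference between culture and day 6 was -0.12. Against the untreated controls, Abcc4 in culture was -0.014 (adjusted p = 0.90). At day 6, 1 member was called without the filter and in the fit of all 30 libraries, and 1 to 3 without 1 library. From day 6 to day 10, 1 was called with intron or exon-exon reads, with all 30 libraries or with the 2 groups alone, and 1 to 2 without 1 library. In culture 3 were called with intron reads and 5 to 6 without 1 library. For CD48, 2 were called with all 30 libraries, 1 by DESeq2, 1 against day-10 HSCs of the 5-FU experiment, and 0 to 1 without 1 library. For the difference between culture and day 6, 0 were called with intron reads and 1 to 2 without 1 library. Between the day-10 HSCs of both experiments, 0 were called with intron reads, 2 by DESeq2 and 0 to 2 without 1 library. The Abcb1b share with intron reads differed by 14.3 points at day 6, 8.20 in culture and 3.76 for CD48, and for CD48 by 4.11 to 6.53 without 1 library. Same-numbered libraries correlated from -0.194 to 0.135 and others from -0.181 to 0.227, and not every library correlated best with its own number. The labels do not state whether the numbers pair samples. Values near 0 on both sides cannot decide it, and the main fits did not pair libraries. With the replicate block, the call of Abcc4 in culture was lost (0.19, adjusted p = 0.069) and no other member call changed. Depth limits Abcb1a most, with as few as 10 reads in a library.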
